A study of Mus musculus with 4 samples.

Results

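The vessels of the kidney were followed through 34 genes of blood and lymphatic endothelium, the cells that line vessels. The genes were listed by name, with earlier results of these data known. Of them, 33 had a row of their own in all 4 tables, among 22662 named genes that could be joined, and 32 entered the test, among 13287 genes tested. Ramp2, the partner that turns the receptor Calcrl into an adrenomedullin receptor, was listed only in a joint row with its neighbour Vps25 and has no value of its own here. Prox1 stayed below the level required for testing.

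RNA of E18.5 mouse embryos, from whole kidneys on a mixed strain background, was sequenced after poly(A) selection. The 2 control libraries were of genotype Hnf4a c/+ with Six2GFPcre, and the 2 mutant libraries of genotype Hnf4a c/c with Six2GFPcre, where c is the conditional allele. Six2GFPcre is a Cre recombinase of nephron progenitors, so it acts in the cells that form nephron tubules and podocytes. All 4 libraries carried it, and since the controls held 1 conditional allele they are not intact kidneys. Hnf4a encodes a nuclear receptor of the proximal tubule. The labels do not name animals or litters, so each p-value measures only library-to-library spread. The 2 libraries of a group differed in the sex-linked transcripts Ddx3y and Xist, given below, so they were not repeats of the same sample.

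Endothelial cells arise outside the nephron lineage and receive growth signals from it. Podocytes and tubule cells secrete Vegfa, which acts on the receptor Kdr of the capillaries, whereas Angpt1 and Angpt2 act on the receptor Tek. The kidney holds several kinds of endothelium, among them the fenestrated capillaries of the glomerulus (marked by Ehd3), the capillaries around the tubules (rich in Plvap), arteries (Gja4, Gja5 and Sox17) and lymphatic vessels (Flt4, Lyve1 and Prox1). Transcription factors of the ETS family (Erg, Fli1, Ets1) and of the SoxF group (Sox7, Sox17, Sox18) set the identity of these cells.

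The values are FPKM (fragment counts divided by transcript length and by the size of the library), so levels can be compared between genes. The tables held between 26000 and 26488 rows, and 13552 to 13646 named genes reached 1 FPKM. They hold no read totals. The lowest values gave mutant replicate 2 about 1.15 times the depth of each other library, and the absolute depth is unknown. Hnf4a stood at 89.3 and 84.6 FPKM in controls and at 87.1 and 78.5 FPKM in mutants, a value that covers the whole gene and does not check the genotype. Replicate 1 of each group carried the Y-linked transcript Ddx3y (27.7 and 26.4 FPKM) and replicate 2 carried Xist (81.0 and 74.0 FPKM), so that this pattern was balanced between the groups. Within a group, other differences between replicates 1 and 2 cannot be told apart from this pattern.

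Endothelial transcripts were present at high levels in every library and differed little between the genotypes. Summed over the 33 genes, they came to 1046 and 1030 FPKM in control replicates 1 and 2 and to 1023 and 1039 FPKM in mutant replicates 1 and 2. The sums averaged 1038 ± 11.1 FPKM in control and 1031 ± 11.4 FPKM in mutant libraries (SD, n = 2 per group), so the mutant mean was 99.3% of the control mean, and the groups overlapped. In a whole organ, fewer cells of a type and less RNA per cell cannot be told apart. The 3 genes that define the endothelium of the kidney here were all well detected, with Pecam1 at 52.8 to 55.2 FPKM, Kdr at 28.8 to 34.1 FPKM and Ehd3 at 19.8 to 23.8 FPKM.

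By mean level over the libraries, 5 genes stood at 50 FPKM or more, 16 between 20 and 50 FPKM and 11 between 1 and 20 FPKM. Egfl7, a secreted protein of the vessel wall, had the highest mean (93.2 FPKM), followed by Cldn5 (78.3 FPKM) and Plvap (77.8 FPKM). The ranges of Cldn5 and Plvap overlapped, and all values of Egfl7 lay above those of Cldn5. Vwf, the clotting protein von Willebrand factor, and Tal1, a factor of blood and endothelial progenitors, had means of 4.08 and 4.26 FPKM with overlapping ranges. Prox1, the factor of lymphatic identity, had the lowest mean, at 0.89 FPKM. Its 4 values ran from 0.78 to 0.93 FPKM, below the range of any other gene of the list.

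**Figure D1:**
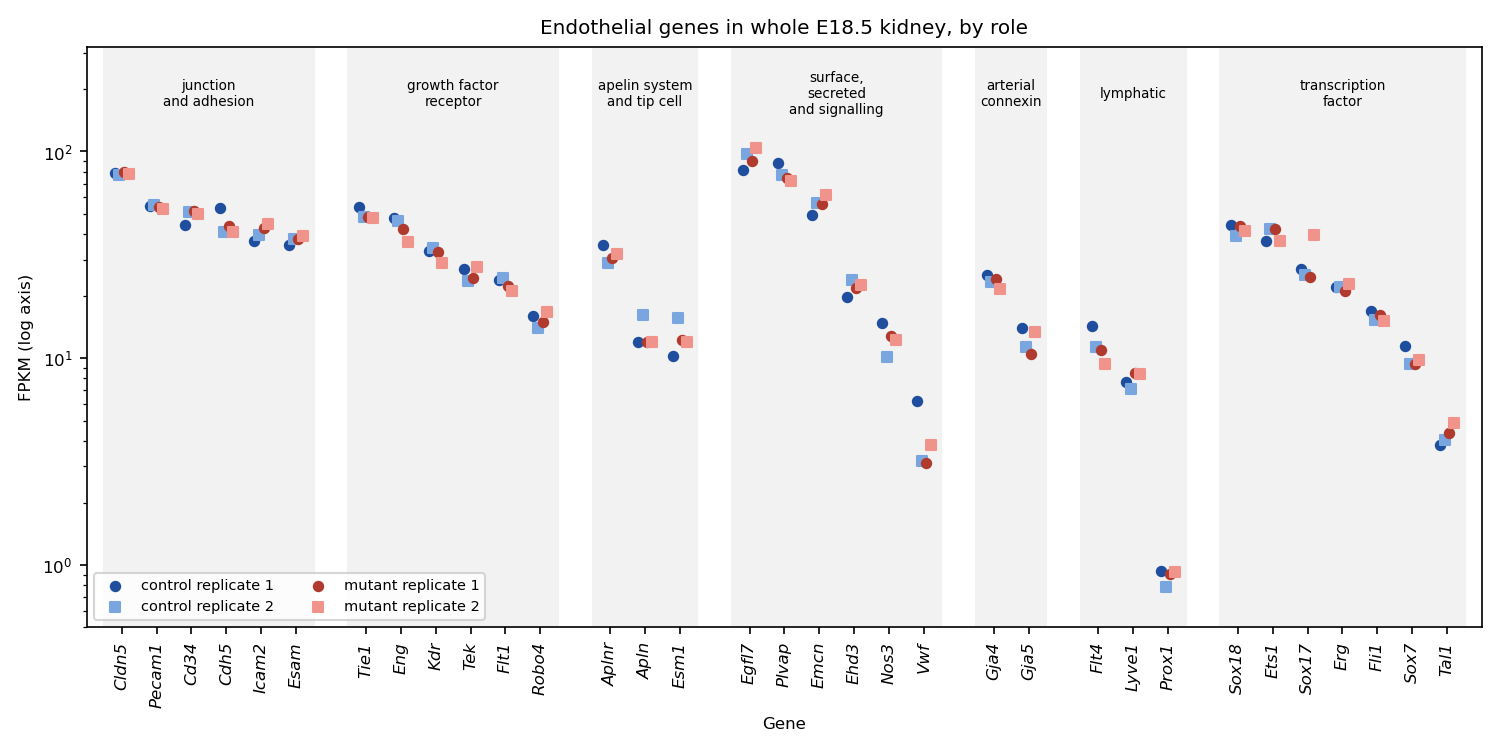
FPKM on a log axis of the 33 endothelial genes with a row of their own, grouped by role, with 1 point per library (circles for replicate 1, squares for replicate 2; blue for control, red for mutant). The 4 points of most genes lie close together, from Egfl7 at a mean of 93.2 FPKM to Prox1 at 0.89 FPKM, and the Sox17 point of mutant replicate 2 stands above the other 3.

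None of the 32 tested genes passed an adjusted p of 0.05 with limma on log2(FPKM + 1), against 0.158% of all tested genes (0.0452% higher and 0.113% lower in mutant libraries). None had an unadjusted p under 0.05 either, against 7.24% of all tested genes (2.67% higher and 4.57% lower). The smallest adjusted p was 0.72, for Eng. The log2 changes ran from -0.31 (Vwf) to 0.25 (Sox17), 15 positive and 17 negative, with a median of -0.02 beside 0.02 for all tested genes. Their median size without regard to sign was 0.09, beside 0.12 for all tested genes and 0.12 for the 10676 genes whose mean level lay within the range of the endothelial genes.

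The intervals give the precision of each change. For 20 of the 32 genes the 95% interval of the log2 change lay between -0.5 and 0.5, where 0.5 is a difference of 41.4% on the scale of FPKM + 1. For 31 it lay between -1 and 1. The exception was Vwf, with an interval from -1.15 to 0.53. The missed threshold does not show that the levels were equal.

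For scale, 8 markers of the proximal tubule, the segment in which Hnf4a is known to act, were all lower in both mutant libraries in the same fit. Their log2 changes ran from -1.87 to -1.19 with a median of -1.48. Vil1, the actin-bundling protein villin of microvilli, was at 26.9 and 25.9 FPKM in control and at 6.93 and 6.05 FPKM in mutant libraries, and it was the single marker of the 8 past the threshold (adjusted p = 0.036, limma); the other 7 missed it. The lowest bound of any endothelial interval, that of Vwf, was -1.15. The highest bound of any tubule interval, that of Slc5a2, was -0.28, so intervals of the 2 sets overlapped.

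**Figure D2:**
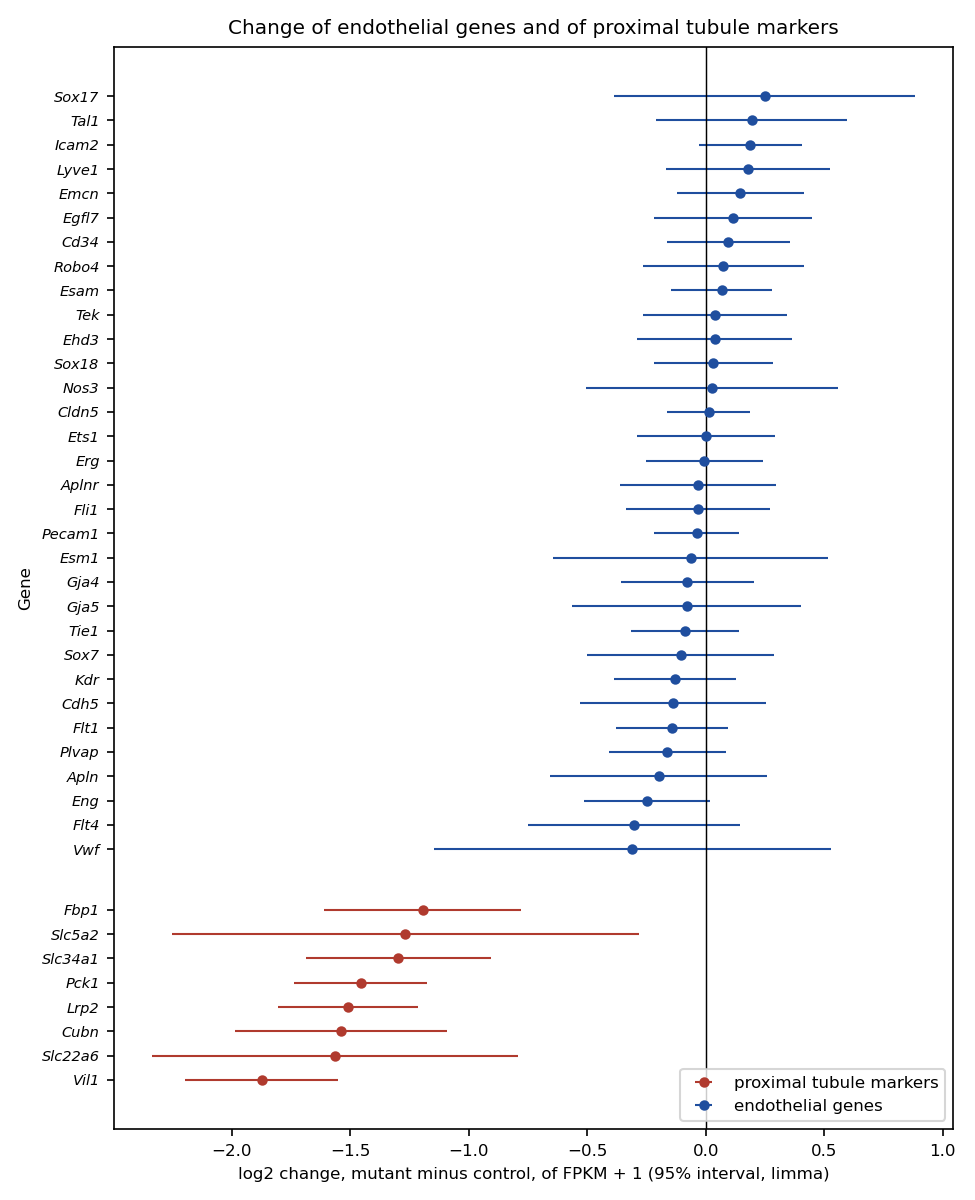
Log2 change (mutant minus control, of FPKM + 1) with its 95% interval from limma for the 32 tested endothelial genes (blue) and 8 proximal tubule markers (red), sorted within each set. The endothelial changes lie between -0.31 and 0.25 with intervals that all include 0, and the tubule markers lie between -1.87 and -1.19.

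The groups did not overlap for 10 of the 32 genes (31.3%), against 39.8% of all tested genes. Of these, 7 were lower in both mutant libraries (21.9%, against 17.1% of all tested genes) and 3 were higher (9.38%, against 22.7%). The split moved with the scaling of the libraries. With libraries scaled to the same median it was 5 higher among 11, and with quantile normalization it was 6 higher among 13.

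Genes of endothelial junctions and adhesion, 6 in all, had 4 positive and 2 negative changes, and none passed. Pecam1, the adhesion molecule CD31, was at 54.3 and 55.2 FPKM in control and at 53.9 and 52.8 FPKM in mutant libraries. Its log2 change was -0.04 (SE 0.07, 95% interval -0.22 to 0.14). The 4 values lay close together, with both mutant values just under the control values. Cldn5, the claudin that seals endothelial tight junctions, was at 78.8 and 77.1 FPKM in control and at 79.6 and 77.7 FPKM in mutant libraries. Its groups overlapped, and its log2 change was 0.01 (SE 0.07).

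Cdh5, the VE-cadherin of adherens junctions, was set apart by a single control. It was at 53.2 FPKM in control replicate 1, and at 40.8, 43.5 and 40.9 FPKM in control replicate 2 and mutant replicates 1 and 2. Without control replicate 1 its log2 change of -0.14 became 0.05. Icam2, a ligand of leukocyte integrins, was higher in both mutant libraries, at 36.8 and 39.4 FPKM in control and at 42.4 and 44.7 FPKM in mutant libraries. The groups did not overlap, and the log2 change of 0.19 (SE 0.08) did not pass (adjusted p = 0.75, limma).

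Esam, a junctional molecule of the immunoglobulin family, was at 35.3 and 37.9 FPKM in control and at 37.8 and 38.9 FPKM in mutant libraries. Cd34, a sialomucin of capillaries that blood progenitors and some stromal cells also carry, was at 44.1 and 50.9 FPKM in control and at 51.5 and 49.8 FPKM in mutant libraries. In both genes the groups overlapped and control replicate 1 was the lowest library.

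The list holds 6 receptors of growth and guidance signals, Kdr, Flt1, Tek, Tie1, Eng and Robo4, and none passed the threshold, with adjusted p from 0.72 to 0.93 (limma). Kdr, Flt1, Tie1 and Eng, 4 of the 6, were lower in both mutant libraries, against 17.1% of all tested genes. With libraries scaled to the same median, and with quantile normalization, these were 3, without Tie1. Flt4, listed with the lymphatic genes, is described beside them. Kdr, the main signalling receptor for Vegfa, was at 33.2 and 34.1 FPKM in control and at 32.6 and 28.8 FPKM in mutant libraries. Its mutant replicate 1 lay just under the controls and replicate 2 further below them. Flt1, which binds Vegfa and limits its supply to Kdr, was at 23.9 and 24.5 FPKM in control and at 22.4 and 21.3 FPKM in mutant libraries.

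Flt4, the receptor for Vegfc on lymphatic vessels and on some capillaries, was at 14.2 and 11.3 FPKM in control and at 10.9 and 9.33 FPKM in mutant libraries. The highest value was control replicate 1, and control replicate 2 lay close to mutant replicate 1. The log2 change was -0.30 (SE 0.17). It was -0.15 without control replicate 1 and -0.46 without control replicate 2.

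Eng, a co-receptor of the TGF-beta family that acts with Acvrl1, had the smallest p of the list. It was at 47.7 and 45.9 FPKM in control and at 42.2 and 36.5 FPKM in mutant libraries, 84.1% of control by means. The groups did not overlap, and mutant replicate 2 lay furthest from the controls. The log2 change was -0.25 (SE 0.10, 95% interval -0.51 to 0.02, adjusted p = 0.72, limma). The Eng locus shared 61 bp with the joint row of Fpgs and Mir8093, so reads at that end cannot be assigned with certainty. Acvrl1 itself, which is not in the list of 34 and is named after its values were seen, was at 25.5 and 24.5 FPKM in control and at 22.2 and 21.9 FPKM in mutant libraries (adjusted p = 0.76, limma).

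The angiopoietin receptor pair had log2 changes of -0.09 (Tie1, SE 0.09) and 0.04 (Tek, SE 0.11), and the difference between them was not tested. Tie1, the partner that modulates Tek, was at 53.7 and 48.1 FPKM in control and at 48.0 and 47.6 FPKM in mutant libraries, so that its second control lay next to both mutants. Tek, the receptor of Angpt1 and Angpt2, was at 27.0 and 23.6 FPKM in control and at 24.6 and 27.5 FPKM in mutant libraries. Its groups overlapped fully, with 1 high and 1 low library in each. Robo4, a guidance receptor that stabilises vessels, was at 16.0 and 14.0 FPKM in control and at 15.0 and 16.8 FPKM in mutant libraries, again with overlap.

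**Figure D3:**
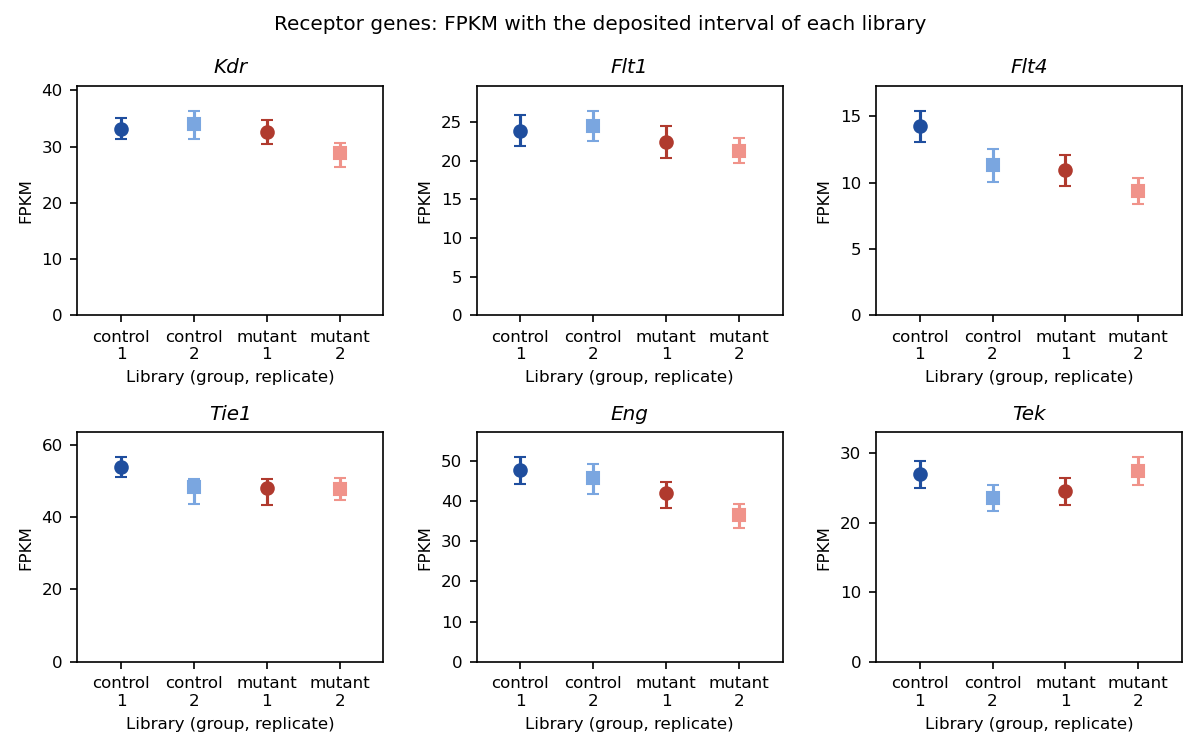
FPKM of 6 receptor genes in each library (circles for replicate 1, squares for replicate 2; blue for control, red for mutant), with bars for the deposited lower and upper bounds and axes from 0. Flt4 is listed with the lymphatic genes, and the receptor Robo4, whose groups overlap, is not shown. Kdr, Flt1, Flt4, Tie1 and Eng lie lower in both mutant libraries, whereas Tek overlaps. Among all tested genes, 17.1% were lower in both mutant libraries. Tie1 overlaps too once libraries are scaled to the same median. In each of the genes that lie lower, bars of some control and mutant libraries overlap. The smallest margin is that of Tie1 (48.1 against 48.0 FPKM).

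The promoters of Kdr, Flt1, Flt4, Tie1 and Eng are shown because their values were lower in both mutant libraries, for Tie1 only without further scaling. The windows hold the 250 bases before the transcription start, from RefSeq on build GRCm38.p6, a later build than the mm9 of the tables. They are printed 5′ to 3′ along the gene, with the ETS core GGAA, or TTCC on the other strand, in capitals. Kdr is at chr5:75978456-75978705 on the minus strand, Flt1 at chr5:147726012-147726261 on the minus strand, Flt4 at chr11:49609429-49609678 on the plus strand, Tie1 at chr4:118489850-118490099 on the minus strand and Eng at chr2:32646345-32646594 on the plus strand.
Kdr: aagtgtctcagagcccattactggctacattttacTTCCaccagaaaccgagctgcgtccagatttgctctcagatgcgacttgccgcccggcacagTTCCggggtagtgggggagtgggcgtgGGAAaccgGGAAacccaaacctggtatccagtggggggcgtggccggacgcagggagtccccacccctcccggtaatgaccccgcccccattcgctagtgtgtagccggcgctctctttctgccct
Flt1: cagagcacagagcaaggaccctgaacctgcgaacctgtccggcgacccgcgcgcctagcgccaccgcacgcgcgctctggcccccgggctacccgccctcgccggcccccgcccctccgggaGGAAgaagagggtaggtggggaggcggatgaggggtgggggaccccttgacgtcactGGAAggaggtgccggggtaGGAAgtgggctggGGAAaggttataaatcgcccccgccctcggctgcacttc
Flt4: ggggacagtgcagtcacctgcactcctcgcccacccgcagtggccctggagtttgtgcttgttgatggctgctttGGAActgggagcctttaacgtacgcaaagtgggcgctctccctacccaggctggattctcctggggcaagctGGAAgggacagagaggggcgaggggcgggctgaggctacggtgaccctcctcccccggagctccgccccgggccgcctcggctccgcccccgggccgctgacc
Tie1: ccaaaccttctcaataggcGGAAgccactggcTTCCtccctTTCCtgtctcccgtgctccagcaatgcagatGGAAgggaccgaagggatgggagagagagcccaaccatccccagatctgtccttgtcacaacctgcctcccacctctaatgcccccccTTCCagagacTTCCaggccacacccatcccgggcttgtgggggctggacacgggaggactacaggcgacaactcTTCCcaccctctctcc
Eng: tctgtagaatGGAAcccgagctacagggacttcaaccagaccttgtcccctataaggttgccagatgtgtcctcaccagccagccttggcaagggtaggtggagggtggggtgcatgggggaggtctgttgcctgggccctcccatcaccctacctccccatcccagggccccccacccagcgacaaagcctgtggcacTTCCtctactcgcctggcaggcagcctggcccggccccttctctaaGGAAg

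The cores numbered 4 in Kdr, 4 in Flt1, 2 in Flt4, 7 in Tie1 and 3 in Eng. The core is short, and 93.4% of all 32851 promoter windows of this length held it on either strand, as did windows of 18 of the 19 endothelial genes with an entry. The exception was Cldn5. A longer ETS match, CCGGAA, was in 12.0% of all windows and in 1 endothelial gene, Kdr. The SOX motif AACAAT was in 9.42% of all windows and in 3 endothelial genes, Tek, Emcn and Erg. The HNF4 motif CAAAGTCCA was in 0.384% of all windows and in none of the 19 genes. Its shorter part CAAAGT was in 12.6% of all windows and in 1 endothelial gene, Flt4. Both strands were searched and matches of different motifs can overlap. These matches describe the letters in the windows and not the binding of a factor.

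The ligands of these receptors were taken from a list of 20 genes, of which 17 were tested and none passed in either direction. Vegfa was at 56.2 and 63.3 FPKM in control and at 59.9 and 64.0 FPKM in mutant libraries, with full overlap (log2 change 0.05, SE 0.09). Vegfc, the ligand of Flt4, was at 9.72 and 14.2 FPKM in control and at 11.3 and 13.6 FPKM in mutant libraries. Angpt2, which opposes Angpt1 at Tek in many settings, was at 9.70 and 12.1 FPKM in control and at 10.8 and 13.8 FPKM in mutant libraries. All of these overlapped.

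Angpt1, the activating ligand of Tek, was higher in both mutant libraries. It was at 7.99 and 9.46 FPKM in control and at 11.01 and 13.3 FPKM in mutant libraries, without overlap. The log2 change was 0.43 (SE 0.16, 95% interval 0.01 to 0.86), and the adjusted p of 0.68 (limma) did not pass. The most abundant ligands of the list were Cxcl12, a chemokine, at 108 ± 9.74 FPKM in control and 108 ± 1.75 FPKM in mutant libraries, and Vegfb, at 80.3 ± 29.0 and 60.2 ± 6.09 FPKM (SD, n = 2 per group). Vegfb stood at 100.8 FPKM in control replicate 2 and at 55.9 to 64.5 FPKM in the others.

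Among 20 further receptors and modulators, 19 were tested and none passed. Nrp1, a co-receptor for Vegfa, was listed only in a joint row with Mir1903, at 40.3 and 39.2 FPKM in control and at 39.2 and 37.6 FPKM in mutant libraries. Plxnd1, a semaphorin receptor, was at 71.0 ± 7.33 FPKM in control and 67.0 ± 3.81 FPKM in mutant libraries, and Ephb4, the venous ephrin receptor, at 59.2 ± 6.44 and 54.4 ± 2.19 FPKM (SD, n = 2 per group). Calcrl, named after its values were seen, had the smallest p of this list and is the receptor that Ramp2 modifies. It was at 16.2 and 17.95 FPKM in control and at 21.6 and 22.8 FPKM in mutant libraries, with a log2 change of 0.36 (SE 0.10) and an adjusted p of 0.52 (limma). The joint row of Ramp2 and Vps25 was at 133 and 192 FPKM in control and at 168 FPKM in both mutant libraries, a range within which the share of Ramp2 is unknown.

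The Notch system sorts arterial from venous cells and tip from stalk cells. Its ligand and receptors named here, Dll4, Notch1 and Notch4, overlapped between the groups. Dll4, the ligand of tip cells and arteries, was at 14.1 and 15.2 FPKM in control and at 14.4 and 15.0 FPKM in mutant libraries. Notch1 was at 30.0 FPKM in control replicate 1 and at 20.2 to 22.3 FPKM in the other libraries. Notch4, the endothelial receptor of the family, was likewise highest in control replicate 1, at 13.2 FPKM against 10.1 to 11.1 FPKM elsewhere. Of 5 Notch targets in the list of nuclear effectors, Hey1 and Nrarp were higher in both mutant libraries, and Hey2, Heyl and Hes1 overlapped, and none passed. Among all tested genes, 22.7% were higher in both mutant libraries. Hey1 was at 24.4 and 27.1 FPKM in control and at 27.3 and 31.0 FPKM in mutant libraries (adjusted p = 0.76, limma). Nrarp was at 34.1 and 32.1 FPKM in control and at 35.3 and 34.2 FPKM in mutant libraries (adjusted p = 0.82, limma). These targets are named after their values were seen.

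Genes of tip cells and of the apelin system carried their largest differences between the controls. Apln, the apelin ligand of sprouting tips, was at 12.0 and 16.2 FPKM in control and at 12.0 and 12.0 FPKM in mutant libraries. Esm1, a secreted proteoglycan induced by Vegfa, was at 10.3 and 15.6 FPKM in control and at 12.2 and 12.0 FPKM in mutant libraries. Control replicate 2 was the highest library for both. Aplnr, the apelin receptor of veins and growing capillaries, was instead highest in control replicate 1, at 35.4 FPKM, with control replicate 2 at 28.9 FPKM and the mutants at 30.6 and 31.9 FPKM. The end of the Aplnr locus moved by 20881 bp between the tables, the largest shift of any gene here.

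Genes of the capillary surface pointed in different directions. Plvap, the diaphragm protein of fenestrae, was at 87.9 and 76.7 FPKM in control and at 74.5 and 72.2 FPKM in mutant libraries, so that the groups just failed to overlap (log2 change -0.16, SE 0.09). Emcn, a sialomucin of capillaries and veins, was at 49.6 and 56.2 FPKM in control and at 55.9 and 61.3 FPKM in mutant libraries, with overlap (log2 change 0.15, SE 0.10). Ehd3, a membrane-trafficking protein enriched in glomerular capillaries, was at 19.8 and 23.8 FPKM in control and at 21.9 and 22.7 FPKM in mutant libraries, with the mutants inside the control range. Egfl7, the host gene of Mir126, was at 81.7 and 97.2 FPKM in control and at 90.1 and 104 FPKM in mutant libraries, with overlap.

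Set against Pecam1 in the same library, Plvap stood at 162%, 139%, 138% and 137% of the Pecam1 level in control replicates 1 and 2 and mutant replicates 1 and 2. Ehd3 stood at 36.5%, 43.1%, 40.7% and 43.0% in the same order. In both ratios control replicate 1 was the library apart, and control replicate 2 lay next to the mutants. Ratios were computed for 10 genes, and no share over all tested genes was computed to set beside them. The Plvap groups separated narrowly, with 138.9% in control replicate 2 against 138.3% in mutant replicate 1. Pecam1 itself was lower in both mutant libraries, which raises ratios there, and Emcn overlapped in FPKM. The groups separated in other ratios too. Icam2 stood at 67.8% and 71.4% in control and at 78.8% and 84.7% in mutant libraries, and Emcn at 91.3% and 102% against 104% and 116%. Lyve1, at 14.1% and 12.8% against 15.8% and 16.0%, was also higher in both mutants. Eng stood at 87.9% and 83.1% in control and at 78.3% and 69.2% in mutant libraries, and Kdr at 61.1% and 61.7% against 60.6% and 54.6%. The ratios of Cdh5, Gja5, Sox17 and Ehd3 overlapped, and no ratio was tested.

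Nos3 and Vwf act in vessel tone and clotting, and in both control replicate 1 was the highest library. Nos3, the endothelial nitric oxide synthase, was at 14.7 and 10.2 FPKM in control and at 12.8 and 12.3 FPKM in mutant libraries, with the mutants between the controls. Vwf was at 6.24 FPKM in control replicate 1 and at 3.19, 3.11 and 3.80 FPKM in control replicate 2 and mutant replicates 1 and 2. Its log2 change of -0.31 (SE 0.31) became 0.09 without control replicate 1, so the difference rests on that library. Vwf is also made by megakaryocytes; Pf4, their chemokine, was at 21.0 and 22.1 FPKM in control and at 18.6 and 26.3 FPKM in mutant libraries, and its part in the Vwf values was not tested.

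Arterial connexins form the gap junctions between arterial endothelial cells. Gja4 was at 25.2 and 23.3 FPKM in control and at 24.2 and 21.6 FPKM in mutant libraries. Gja5 was at 14.0 and 11.4 FPKM in control and at 10.5 and 13.4 FPKM in mutant libraries. Both overlapped between the groups.

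Sox17, a factor of arterial identity, had the largest difference between the mutant libraries. It was at 26.9 and 25.2 FPKM in control and at 24.6 and 39.4 FPKM in mutant libraries. Mutant replicate 2 stood above the other 3 libraries, whose deposited intervals lay between 21.1 and 29.7 FPKM, against 33.4 to 45.4 FPKM for mutant replicate 2. The log2 change of 0.25 (SE 0.24) became -0.08 without mutant replicate 2, so it rests on that library. Its relatives did not share this value, with Sox18 at 44.0, 39.1, 43.6 and 41.3 FPKM and Sox7 at 11.5, 9.38, 9.35 and 9.81 FPKM in control replicates 1 and 2 and mutant replicates 1 and 2. Gja4 and Gja5 in mutant replicate 2, at 21.6 and 13.4 FPKM, were within or below the range of the other libraries.

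The ETS factors were level. Erg, which maintains endothelial identity, was at 22.2 and 22.2 FPKM in control and at 21.2 and 23.0 FPKM in mutant libraries, with the controls inside the mutant range. Fli1, its close relative, was at 17.0 and 15.2 FPKM in control and at 16.3 and 15.2 FPKM in mutant libraries. Ets1, which some stromal and blood cells share, was at 37.1 and 42.0 FPKM in control and at 42.0 and 37.1 FPKM in mutant libraries, the same pair of values in each group at this rounding. Tal1 was at 3.79 and 4.02 FPKM in control and at 4.37 and 4.85 FPKM in mutant libraries, higher in both mutants without overlap (log2 change 0.19, SE 0.15, adjusted p = 0.77, limma). The deposited interval of Tal1 in control replicate 1 ran from 0.0 to 10.7 FPKM and so covered the values of every library.

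Tal1 also acts in red cell precursors, and markers of these cells were measured beside it. The 8 erythroid genes with a row of their own summed to 25.7 and 33.6 FPKM in control and to 33.8 and 40.0 FPKM in mutant libraries, and none of the 5 tested passed, with 4 positive changes and 1 negative. This sum leaves out the globins Hba-a1, Hba-a2, Hbb-b1 and Hbb-b2, found in joint rows. The joint row of Hba-a1 and Hba-a2 was at 358 and 362 FPKM in control and at 394 and 342 FPKM in mutant libraries. It overlapped between the groups (log2 change 0.03, SE 0.10, adjusted p = 0.95, limma). The joint rows of Hbb-b1 held different genes in different libraries. Hbb-y, an embryonic globin named after its values were seen, was at 3.96 and 4.55 FPKM in control and at 0.663 and 1.72 FPKM in mutant libraries, lower in both without overlap (log2 change -1.30, SE 0.29, adjusted p = 0.36, limma). Alas2, the haem synthesis enzyme of red cells, was at 16.9 and 20.2 FPKM in control and at 26.5 and 27.6 FPKM in mutant libraries (log2 change 0.53, SE 0.12, adjusted p = 0.37, limma). Slc4a1, the anion exchanger of red cells, overlapped, at 2.84 and 5.39 FPKM in control and at 4.03 and 5.69 FPKM in mutant libraries. Their part in the Tal1 values was not tested.

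Lymphatic genes gave no common direction. Lyve1, a hyaluronan receptor of lymphatic vessels and of some macrophages, was at 7.68 and 7.06 FPKM in control and at 8.51 and 8.43 FPKM in mutant libraries, higher in both mutants without overlap (log2 change 0.18, SE 0.13, adjusted p = 0.76, limma). Flt4 was lower in both mutants, as given above. Prox1 was at 0.93 and 0.78 FPKM in control and at 0.90 and 0.93 FPKM in mutant libraries, with overlap and at a level too low for the test. Macrophage markers beside Lyve1 summed to 135 and 123 FPKM in control and to 125 and 145 FPKM in mutant libraries over 11 genes, with C1qc at 22.1 and 20.4 against 23.8 and 29.2 FPKM and Tyrobp at 30.5 and 22.4 against 19.4 and 21.7 FPKM. Their part in the Lyve1 values was not tested.

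Nuclear effectors outside the list followed the same course, with 19 of 22 tested and none past the threshold. Id1 and Id3, targets of BMP signalling, were the most abundant, Id1 at 112 ± 6.64 FPKM in control and 111 ± 3.26 FPKM in mutant libraries and Id3 at 159 ± 10.3 and 169 ± 4.01 FPKM (SD, n = 2 per group). Foxc2, named after its values were seen, had the smallest p of these, at 53.8 and 52.4 FPKM in control and at 46.5 and 42.6 FPKM in mutant libraries (log2 change -0.25, SE 0.08, adjusted p = 0.61, limma). Foxc2 is also active in podocytes of the embryonic kidney.

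The controls differed from each other by more than the group means differed in 23 of the 32 genes (71.9%), as in 60.9% of all tested genes. The mutants did so in 15 (46.9%), as in 48.3% of all tested genes. A difference of single libraries is more variable than a difference of group means, so these counts are read only beside those shares. Control replicate 1 was the highest of the 4 libraries for 13 genes, among them Cdh5, Vwf, Flt4 and Plvap. It was the lowest for 9, among them Cd34, Egfl7 and Esm1. Control replicate 2 was the highest for 7 genes and the lowest for 8. Mutant replicate 1 was the highest for 3 and the lowest for 6, and mutant replicate 2 for 9 and 9. The highest and lowest library were not counted over all tested genes. Without control replicate 2, 4 of the 32 genes had an unadjusted p under 0.05, as did 2293 of the 13287 tested genes, and none passed after adjustment.

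The deposited interval of each FPKM value gave a second view of the error within a library, but some intervals did not hold their own value. Cldn5 was at 77.1, 79.6 and 77.7 FPKM in control replicate 2 and mutant replicates 1 and 2. The upper bounds of these intervals were 76.0, 78.5 and 76.1 FPKM. For 12 of the 33 genes the intervals of the controls did not overlap each other, among them Cdh5, Vwf, Flt4, Nos3, Apln and Esm1. Sox18 was counted on a margin of 39.81 against 39.84 FPKM. All 12 are among the 32 tested genes (37.5%, against 19.3% of all those with a single row in each table). Between the mutants this was so for 1 gene, Sox17 (3.12%, against 10.8%). No gene had all 4 control-to-mutant comparisons apart, against 3.03% of 13251 tested genes with a single row in each table. Of 132 such comparisons 21 were apart, spread over 12 genes. Over the 32 tested genes this is 16.4% of comparisons, against 18.8% over all those genes.

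**Figure D4:**
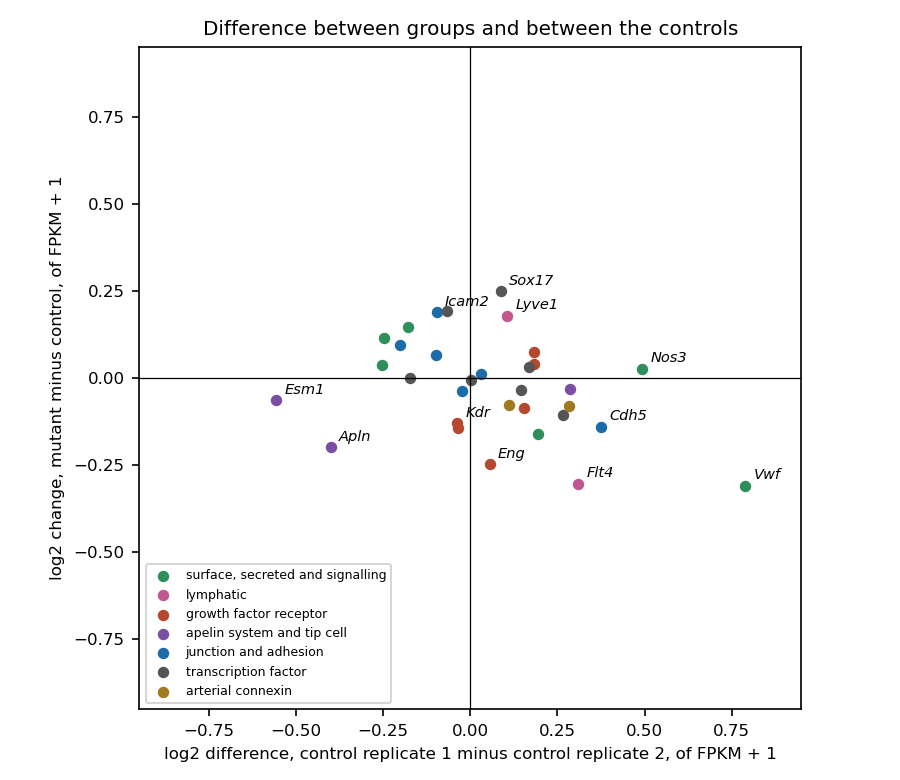
Each point is 1 of the 32 tested endothelial genes, coloured by role, with the log2 difference between control replicates 1 and 2 on the x axis and the log2 change between mutant and control on the y axis, both of FPKM + 1. The y values lie between -0.31 (Vwf) and 0.25 (Sox17). Control values enter both axes, and the x axis compares single libraries while the y axis compares group means.

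The rows of these genes were mostly alike between the tables. In 22 of 33 genes the locus was identical in the 4 tables, and in 2, Aplnr and Fli1, a boundary moved by more than 1000 bp. Pecam1 was on mm9 chromosome 11 from 106515522 to 106576628, Kdr on chromosome 5 from 76328874 to 76374471, Ehd3 on chromosome 17 from 74154181 to 74181433 and Sox17 on chromosome 1 from 4480972 to 4487435, each at its widest. Loci of 4 genes shared bases with another named row. Besides Eng these were Cd34 with Gm16897 and Egfl7 with Mir126 and Mir126b, all 3 listed at 0 in every table, and Nos3 with Atg9b, listed at 0 in 3 tables and at 1.80 FPKM in control replicate 2.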

How the data were processed

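RNA of whole kidneys was sequenced as 4 libraries, 2 per genotype. The FPKM values and their lower and upper bounds were computed by the authors, 1 deposited table per library. The submitters' processing notes name Cufflinks 2.1.1, SAMtools 0.1.19, Bowtie 1.0.0, TopHat2 2.0.11 and build mm9; the sources used here give no annotation, options or strand. Gene boundaries differed between the tables for 11 of the 33 genes. Locus starts in the tables count from 0 (end minus start equalled the RefSeq gene length in 7805 of 13501 genes, against 374 with 1 added) and are printed from 1.

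Rows were joined by symbol; of 23852 names, 22761 were in all 4 tables, 99 with a row not marked OK were left out, and FPKM was summed over rows of a symbol. Genes reaching 1 FPKM in 2 or more libraries entered the test, on log2(FPKM + 1), which understates the change of low genes, with limma 3.58.1 in R 4.3.3 (group as single term, mean-variance trend, Benjamini-Hochberg over all tested genes, threshold 0.05). The fit was tested on simulated data. Alternatives changed the pseudocount, filter, scaling, variance trend, treatment of several rows, the replicate block and each library in turn. Promoter sequences came from RefSeq (GRCm38.p6), with 19 of the 34 genes matched. The genes and lists were chosen with earlier results of these data known. Named were all 34 genes, Hnf4a, 8 fixed ligands and receptors (Vegfa, Vegfc, Angpt1, Angpt2, Nrp1, Dll4, Notch1, Notch4), members of the other lists past the threshold or else the 2 most abundant, and genes said to be chosen after their values were seen.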

Additional observations from a re-analysis of the deposited data

How the results depend on the processing

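No endothelial gene passed the threshold under any of the 12 alternatives. The median log2 change of the tested genes moved by less than the spread between replicates under all of them, from -0.04 without control replicate 2 to 0.02 without control replicate 1. The number of genes whose groups do not overlap went from 10 to between 18 and 26 when 1 library was left out (a single library is by construction easier to separate), and was between 9 and 13 otherwise. With the replicate number as a replicate block, 0 of 32 genes passed, the median stayed at -0.02, and the calls over all genes went from 21 to 6. Same-numbered libraries are not stated to be related, but they shared the Ddx3y or Xist pattern. The differences between replicates 1 and 2 in the 2 groups had a correlation of 0.15 across genes. Over all genes the calls also went to 0 without control replicate 1 and without control replicate 2, to 12 and 14 without mutant replicates 1 and 2, to 41 with no filter, to 33 with the higher filter and to 11 with no mean-variance trend; the cause was not tested. Of 382 values for single genes under the alternatives, 353 kept their direction. The other 29 belong to 19 genes. Ets1, at 7.7e-05, became -0.0052 with libraries scaled to the same median and -0.00072 with quantile normalization. All other reversals came from leaving out 1 library, over which the log2 changes ranged as follows: Apln (-0.40 to 0.0020), Aplnr (-0.17 to 0.11), Cd34 (-0.0061 to 0.20), Cdh5 (-0.33 to 0.048), Cldn5 (-0.0045 to 0.030), Egfl7 (-0.0089 to 0.24), Ehd3 (-0.089 to 0.16), Erg (-0.061 to 0.048), Esm1 (-0.34 to 0.22), Ets1 (-0.087 to 0.087), Fli1 (-0.11 to 0.040), Gja5 (-0.24 to 0.083), Nos3 (-0.22 to 0.27), Robo4 (-0.017 to 0.17), Sox17 (-0.080 to 0.58), Sox18 (-0.051 to 0.12), Sox7 (-0.24 to 0.027), Tek (-0.051 to 0.13), Vwf (-0.70 to 0.086). Directions of the other 13 genes (Emcn, Eng, Esam, Flt1, Flt4, Gja4, Icam2, Kdr, Lyve1, Pecam1, Plvap, Tal1 and Tie1) held under every alternative that tested them. Where a group was reduced to 1 library, that library was assumed to vary like the other group. Absolute depth is unknown, so no counting error can be given.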

Other observations

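Of 33 further genes of vessels outside the list of 34, 29 were tested and none passed. Those with the highest mean levels were Igfbp5, at 112 ± 5.85 FPKM in control and 99.5 ± 8.08 FPKM in mutant libraries, and Igfbp3, at 100 ± 1.94 and 86.3 ± 9.14 FPKM (SD, n = 2 per group), both binding proteins for insulin-like growth factors. The genes with an unadjusted p under 0.05 were Procr and Aqp1, named after their values were seen. Procr, the endothelial receptor of protein C, was at 13.6 and 14.0 FPKM in control and at 21.96 and 29.7 FPKM in mutant libraries, 187% of control (log2 change 0.84, SE 0.17, adjusted p = 0.30, limma). Aqp1, a water channel of both proximal tubule and capillaries, was at 74.6 and 75.5 FPKM in control and at 46.6 and 49.1 FPKM in mutant libraries, 63.8% of control (log2 change -0.64, SE 0.07, adjusted p = 0.096, limma). Which cells gave these values was not tested.

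The cells around the vessels were measured through 10 tested genes of mural cells and stroma, none of which passed. The most abundant were Col1a1, at 137 and 98.1 FPKM in control and at 100.6 and 80.1 FPKM in mutant libraries, and Tagln, a smooth muscle protein, at 97.2 and 109 FPKM in control and at 110 and 84.9 FPKM in mutant libraries. Both overlapped between the groups. Podocyte markers, 8 tested and none passed, had a median log2 change of -0.03, with Podxl at 78.3 and 79.9 FPKM in control and at 80.5 and 75.0 FPKM in mutant libraries and Wt1 at 58.6 and 69.2 against 64.8 and 55.2 FPKM. Of the 7 adrenal genes listed to check the dissection, the 6 with a row of their own summed to at most 1.23 FPKM in any library. The other, Hsd3b1, was in a joint row with Hsd3b2, Hsd3b3 and Hsd3b6 in 2 libraries. That row was at 36.5 FPKM in control replicate 1 and at 26.5 FPKM in mutant replicate 2. The share of Hsd3b1 in it is unknown.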
